A study of Mus musculus with 30 samples.

Results

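The windows described here are stretches of 50 kb on the autosomes of the mouse genome (mm10), counted from base 0, that held 6 or more binding sites of CTCF in wild-type (WT) embryonic trunk. They were chosen by measured values: peak summits of the 3 CTCF WT lists were linked within 150 bp, and a site was kept where all 3 lists had a peak over the median summit. The rule found 432 windows among 23641 autosomal windows with at least 1 such site (1.83%), and these held 2785 of 46282 autosomal CTCF WT sites (6.02%). They are called dense windows below, and the remaining 43497 autosomal sites are the other sites.

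CTCF and RAD21 were profiled by ChIPmentation, chromatin immunoprecipitation in which Tn5 transposase inserts the sequencing adapters on the beads, in trunks taken below the post-occipital region of B6CBAF1 embryos at E10.5. Each embryo was dissociated on its own, and each library has its own peak list with no pooling across embryos. The mutant embryos were homozygous for 1 of 6 alleles of the Hoxd cluster, each named Del for the CTCF binding sites (CBS) it affects, and the WT embryos were control littermates. For CTCF, Del(CBS1) had 3 libraries, Del(CBS2) had 1, Del(CBS1-2) had 1, and Del(CBS1-3), the allele Del(CBS1-4) and the allele Del(CBS1-5) had 2 each, against 3 WT libraries. For RAD21 the numbers were the same except that Del(CBS1-2) had 2, against 4 WT libraries. A whole trunk mixes many cell types, so a site bound in a few cells and one bound weakly in all cells cannot be told apart. On chromosomes 1 to 19, X and Y the lists held 39938 to 88243 CTCF peaks and 16627 to 48024 RAD21 peaks. Read depth was unknown, so no interval from counting error is given, and a site without a peak was not detected rather than unbound.

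CTCF is a zinc-finger protein that binds a long, oriented DNA motif. Cohesin, a ring complex of which RAD21 is the kleisin subunit, extrudes chromatin loops and is held up where CTCF sits in the right orientation, so sites with both proteins often mark loop anchors and the borders of chromatin domains. Clusters of neighbouring CTCF sites are known from Hox and protocadherin gene clusters, where they separate or select regulatory contacts.

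A few sequences show what such sites look like at gene starts, where RefSeq promoter stretches of the files' build (GRCm38.p6, which is mm10) were at hand. Of 889 promoters of 300 bases in dense windows (250 bases before the start and 50 after), 103 held a CTCF WT summit (11.6%), against 1625 of all 31396 autosomal promoters (5.18%). The summits chose the windows, so this difference has no test. The core of the known CTCF consensus, 12 bases searched on both strands with at most 1 mismatch, was present in 34 of those 103 promoters (33.0%), in 532 of 1522 promoters with a summit in other windows (35.0%) and in 4.41% of all autosomal promoters. A match is a description of letters and not a measured contact. Among 23 promoters in dense windows with a core within 50 bp of the summit, the 6 with the highest CTCF percentile in WT are printed on their own gene's strand, with the core in capitals. The core may stand on either strand.
Polr2j (chr5:136116576-136116670, + strand): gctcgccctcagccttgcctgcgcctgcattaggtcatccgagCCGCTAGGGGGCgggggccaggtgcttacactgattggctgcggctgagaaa
Tlcd1 (chr11:78177944-78178044, + strand): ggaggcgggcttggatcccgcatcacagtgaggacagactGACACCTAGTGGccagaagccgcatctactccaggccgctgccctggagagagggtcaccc
Radil (chr5:142551193-142551319, − strand): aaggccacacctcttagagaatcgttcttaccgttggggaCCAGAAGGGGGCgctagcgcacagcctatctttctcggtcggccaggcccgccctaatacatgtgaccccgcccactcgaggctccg
Ttyh1 (chr7:4119393-4119484, + strand): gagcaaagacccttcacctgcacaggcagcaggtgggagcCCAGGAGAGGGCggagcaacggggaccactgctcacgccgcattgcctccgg
Catip (chr1:74361968-74362059, + strand): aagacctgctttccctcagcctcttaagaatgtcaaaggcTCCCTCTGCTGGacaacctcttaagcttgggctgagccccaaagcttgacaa
Chrna1os (chr2:73584712-73584806, + strand): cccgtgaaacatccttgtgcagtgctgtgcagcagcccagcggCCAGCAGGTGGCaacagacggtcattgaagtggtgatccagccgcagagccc

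These 6 sites differed in RAD21. The strongest of the 6, at the start of Polr2j, a subunit gene of RNA polymerase II, had CTCF fold enrichments of 22.0, 17.1 and 19.8 in the 3 WT libraries. Fold enrichment is the authors' value of how far a peak's summit rose above its library's own local background. RAD21 had a peak there in 3 of 12 mutant libraries and in 0 of 4 WT libraries, although the CTCF site stood at percentile 99.6 of all autosomal sites. A percentile is the site's mean rank by fold in the 3 WT lists, with 100 the strongest. At Tlcd1, with CTCF folds of 16.9, 16.3 and 15.2, RAD21 was found in all 12 mutant and all 4 WT libraries, with folds of 9.13, 13.5, 11.6 and 13.6 in WT. Radil, Catip and Chrna1os also had RAD21 in all 16 libraries. Ttyh1, a chloride channel family gene, had RAD21 in 1 of 12 mutant and 2 of 4 WT libraries, at folds of 3.44 and 4.02. So of the 6 sites 4 had RAD21 in every library, and the strongest by CTCF was not among them.

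Most dense windows were only just dense. There were 298 windows with 6 sites, 91 with 7, 32 with 8, 9 with 9, and 1 each with 11 and 12 sites. Just below the threshold lay 674 windows with exactly 5 sites. Windows with 6 sites averaged 3.26 genes and their sites a median percentile of 37.9, and windows with 5 sites averaged 3.02 genes and 40.3. In 259 of the 432 windows the sites formed 6 or more separate peak intervals in every WT list. In the other windows some summits shared an interval. The sites of a dense window spread over a median of 37400.5 bp (quartiles 32574.8 and 42461.5). The median distance from a site to the nearest other site was 2841 bp in dense windows and 11288 bp in windows of 1 to 5 sites. A neighbour within 1 kb was present for 26.0% of the sites in dense windows and for 9.74% of the other sites. Of the 432 windows 56 adjoined another dense window, in 27 runs of at most 3.

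Dense windows were gene-rich. They held a median of 3 genes, against 2 in windows of 1 to 5 sites, and on average 2.31 protein-coding genes, against 1.15. Only 6 dense windows (1.39%) touched no gene, against 11.9% of the windows with 1 to 5 sites. The mean number of genes was 1.53 in windows with 1 site, 2.01 with 2, 2.35 with 3, 2.71 with 4 and 3.02 with 5, so dense windows continued a gradation already present below the threshold. Above it the mean was 3.26 with 6 sites, 3.67 with 7, 2.91 with 8 and 3.22 with 9. Sites within 1 kb of a listed gene start made up 10.3% of the sites in dense windows and 8.58% of the other sites. The listed starts were those of the 31396 autosomal promoters, which carry 25748 symbols, while 47042 autosomal genes were annotated. Sites near unlisted starts were counted as elsewhere in a gene or outside genes. A further 56.7% of the sites in dense windows lay elsewhere in a gene and 32.9% outside genes, against 53.1% and 38.3% of the other sites. By chromosome, 53 dense windows lay on chromosome 5, 52 on 11, 44 on 7 and 42 on 2. Chromosome 11 had the highest share of its windows with sites that were dense (3.46%), and chromosome 13 the lowest (0.707%).

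**Figure D1:**
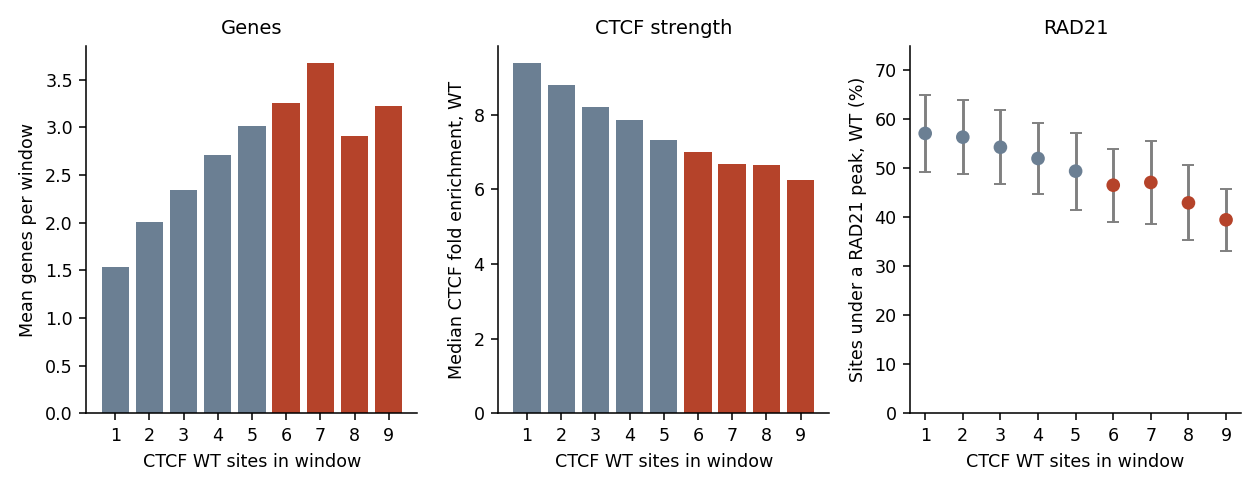
Windows of 50 kb grouped by their number of CTCF WT sites (x axis, 1 to 9), with dense windows in red: mean number of genes, median WT CTCF fold enrichment of the sites, and percent of the sites under a RAD21 peak in WT (points are means and bars are SD over 4 libraries). Mean genes are highest at 7 sites (3.67), while CTCF fold and the RAD21 share are lower at 9 sites than at 1.

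Named gene families were unevenly represented. In all, 1393 of 47042 annotated autosomal genes (2.96%) and 960 of 20665 protein-coding genes (4.65%) overlapped a dense window. Among the genes of the Hox clusters, homeobox genes that pattern the body axis, 10 of 41 did (24.4%), all in 2 windows: one with Hoxd9 to Hoxd13 and Evx2, and one with Hoxb6 to Hoxb9. Among the clustered protocadherins, cell adhesion genes of neurons, 24 of 58 did (41.4%), in 3 windows on chromosome 18. Neighbouring genes share a window, so these genes are not independent counts. Ribosomal protein genes overlapped dense windows in 8 of 81 cases (9.88%), each in a window of its own (Rpl3, Rpl11, Rpl18, Rpl23a, Rpl29, Rpl32, Rpl38 and Rps18). Of the Wnt and Fgf ligands 3 of 39 did (7.69%: Fgf15, Fgf17 and Fgf22), of the major histocompatibility genes 3 of 50 (6%), and of the imprinted genes 2 of 36 (5.56%: Commd1 and Zrsr1, in 1 window). Closer to the average were histone genes (3 of 70, 4.29%) and trunk transcription factors (4 of 113, 3.54%: Tbx2, Tbx5, Tbx6 and Foxp2). Zinc finger genes were at 9 of 438 (2.05%). Listed olfactory receptors (0 of 1420), immunoglobulin and T cell receptor genes (0 of 580) and keratins (0 of 55) were absent. Lists were made by symbol, so genes with other symbols and windows beside these loci were not counted. These counts carry no test.

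CTCF sites in dense windows had lower fold enrichment than other sites. In the 3 WT libraries the median fold was 7.84, 6.01 and 6.76 in dense windows and 9.68, 7.09 and 8.95 at the other sites. Their median percentile was 36.1, against 50.0 at the other sites. The WT lists chose the members, so this is a description. In quartile groups of WT strength by fold, 1021 of the 2785 sites (36.7%) fell in the weakest and 355 (12.7%) in the strongest. Yet 245 of the 432 windows had at least 1 site in the strongest quartile group, and 139 had sites in all 4 quartile groups. The ranking depended on the measure: by the peak caller's −log10 p, the median percentile was 50.7 in dense windows and 49.2 at the other sites.

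The mutant CTCF lists, which had no part in choosing the members, were used to repeat the contrast at the same sites. Since the WT lists fixed the sites, the p-values cover the spread between these libraries only. Over 11 mutant libraries the median percentile by fold averaged 38.0 ± 3.55 in dense windows and 50.8 ± 0.232 at the other sites (SD, n = 11). The within-library difference was −12.8 ± 3.78 and ran from −18.4 in Del(CBS2) to −6.49 in Del(CBS1-3) replicate 2. Dense windows were lower in 11 of 11 libraries (exact sign permutation test, 2-sided, p = 0.000977, the smallest it can give; adjusted over 25 tests 0.00163). Ranked by −log10 p, the difference was +2.55 (exact sign permutation p = 0.000977). It was −5.37 when peaks under a −log10 q of 10 were left out (exact p = 0.283). The 3 mutant libraries with the shortest CTCF lists, Del(CBS1-3) replicate 2 and Del(CBS1) replicates 2 and 3, had the smallest differences by fold. In WT the difference was −12.5, −10.6 and −18.7.

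Detection of CTCF in the mutants gave no single answer. Here too the sites were those of WT, and the p-values cover the spread between libraries only. In the 11 mutant libraries a peak covered 76.0% to 99.5% of the sites in dense windows, and the mean difference from the other sites was +0.388 ± 0.923 percentage points (positive in 7 of 11 libraries; exact sign permutation p = 0.197, adjusted 0.214). Detection was higher in dense windows with the other sites weighted to the dense windows' fold quartile groups (+4.28, exact p = 0.00195), with only peaks of −log10 q 10 or more (+2.55, exact p = 0.000977), with lists trimmed to equal length (+2.295, exact p = 0.000977) and for sites with no other within 1 kb (+0.725, exact p = 0.0283). It was lower with a summit within 100 bp required (−1.28, exact p = 0.0264). Among the weakest quartile group of sites by fold, detection was higher in dense windows by 8.69 ± 7.93 points (10 of 11 libraries, exact p = 0.00195, adjusted 0.00305), with medians of 90.2% in dense windows and 85.2% at the other sites. Among those of them that shared no interval with another site in a WT list, the medians were 91.5% in dense windows and 85.4% elsewhere. Of all sites, 22.0% in dense windows shared an interval, against 8.56% of the others.

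RAD21 was found at a smaller share of CTCF sites in dense windows. In WT, a RAD21 peak covered 35.7%, 53.8%, 47.4% and 48.4% of the sites in dense windows and 44.2%, 61.9%, 56.1% and 57.6% of the other sites in replicates 1 to 4. The share was lower in dense windows in every one of these libraries. The means were 46.3 ± 7.62% in dense windows and 54.9 ± 7.58% elsewhere (SD, n = 4). Across all 16 RAD21 libraries the difference averaged −8.01 ± 0.805 percentage points and was negative in 16 of 16 (exact sign permutation test, 2-sided, p = 3.05e-05, the smallest it can give; adjusted over 25 tests 6.36e-05). The sites are the same in every library, so this p covers the spread between libraries only. In the 4 WT libraries alone the difference was −8.62 ± 0.446 (exact p = 0.125, the smallest that 4 libraries allow). RAD21's own sites, built from the 4 WT RAD21 lists by the same linking, numbered 934 in dense windows out of 19527. That is 0.335 per CTCF site, against 0.425 in windows of 1 to 5 sites, although a dense window held more of them (2.16 against 0.797 per window).

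**Figure D2:**
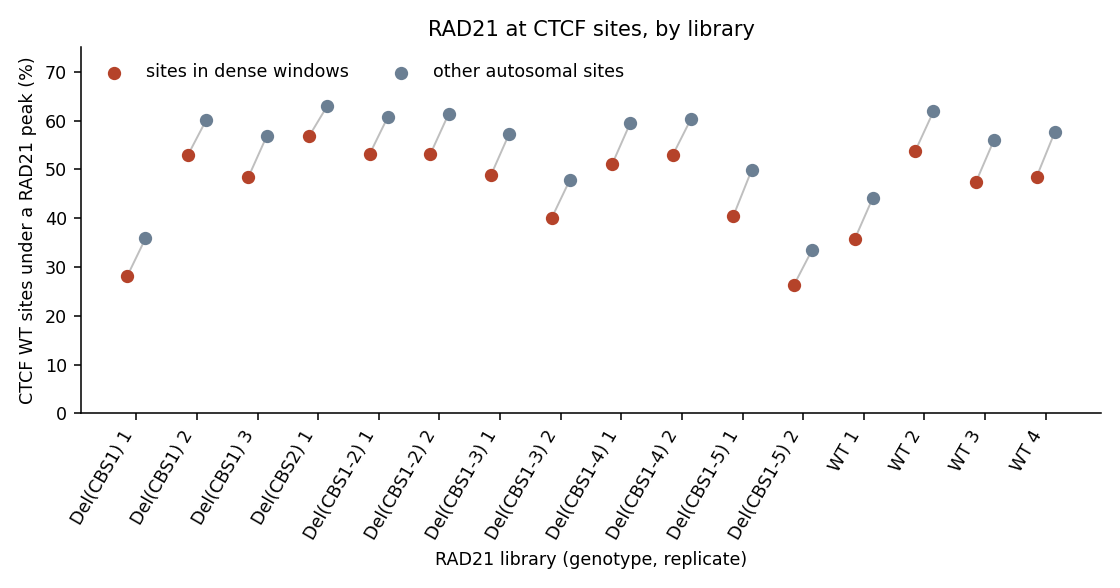
Percent of autosomal CTCF WT sites under a RAD21 peak (y axis) in each of the 16 RAD21 libraries (x axis, genotype and replicate), for sites in dense windows (red) and other sites (blue-grey), joined within a library. In all 16 libraries the dense value lies below the other value, by 6.21 to 9.34 percentage points.

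The size and even the sign of this difference depended on how sites of like CTCF strength were matched. When the other sites were weighted to the dense windows' distribution over quartile groups of CTCF fold, RAD21 was higher in dense windows by 2.26 ± 0.666 percentage points (16 of 16 libraries, exact p = 3.05e-05). Matched instead over quartile groups of −log10 p, it was lower by 9.25 points (difference −9.25 ± 0.833, 16 of 16 libraries, exact p = 3.05e-05). The groups of fold did not fully even out CTCF strength. Median CTCF percentiles in dense windows and elsewhere were 11.8 and 15.6 in the weakest group and 36.3 and 37.2 in the second. They were 59.5 and 61.7 in the third group and 84.9 and 86.2 in the strongest. Within quartile groups of fold the WT shares were 21.2 ± 5.87% in dense windows and 16.3 ± 6.85% elsewhere in the weakest, 40.7 ± 9.14% and 38.1 ± 10.6% in the second, 68.6 ± 9.55% and 69.4 ± 9.68% in the third, and 89.7 ± 6.11% and 93.5 ± 3.38% in the strongest (SD, n = 4). Over 16 libraries the difference in the weakest quartile group was +4.86 and in the strongest −3.17 (adjusted exact p = 6.36e-05 and 0.000117). In the third quartile group it was −0.392, which did not pass (adjusted 0.154). Within quartile groups of −log10 p, dense windows were lower in all 4, and by the most in the third, at 56.8 ± 10.1% in dense windows and 74.4 ± 9.05% elsewhere (difference over 16 libraries −16.2 ± 2.09). The matching by −log10 p was added after the data were seen. Where fold and −log10 p disagree on which sites are alike, the comparison of RAD21 has no single answer in these files.

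**Figure D3:**
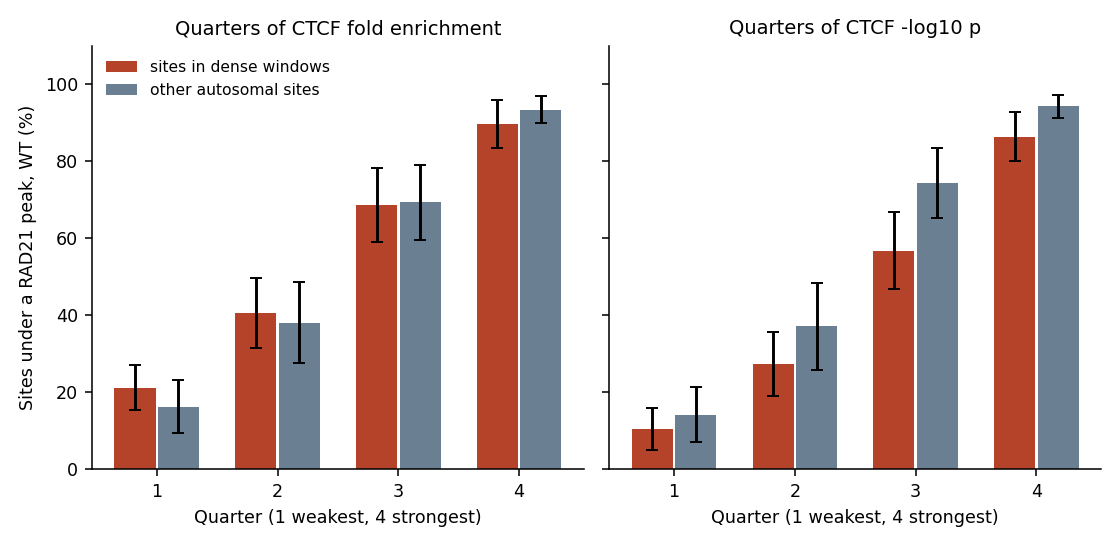
Percent of CTCF WT sites under a RAD21 peak in WT (bars are means and whiskers SD over 4 libraries) in dense windows (red) and elsewhere (blue-grey), by quartile group of CTCF strength measured as fold enrichment (left) or −log10 p (right). By fold the dense bars are the higher ones in the weakest quartile group (21.2% and 16.3%), while by −log10 p they are the lower ones in all 4 quartile groups.

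The difference without matching was present wherever the sites lay. Within 1 kb of a listed gene start the WT share was 44.9 ± 9.62% in dense windows and 54.7 ± 12.2% elsewhere. Elsewhere in genes it was 44.2 ± 7.69% and 52.2 ± 7.49%, and outside genes 50.4 ± 6.92% and 58.8 ± 6.71%. Over 16 libraries the 3 differences were −10.3 ± 2.81, −7.13 ± 0.763 and −7.93 ± 1.10 points, each negative in 16 of 16 (exact p = 3.05e-05 for each, adjusted 6.36e-05). Among sites that shared no interval with another, the WT share was 48.2 ± 7.85% in dense windows and 56.2 ± 7.55% elsewhere. By number of sites in the window the WT share was 57.1% with 1 site, 56.4% with 2, 54.3% with 3, 52.0% with 4 and 49.4% with 5, then 46.6% with 6, 47.1% with 7, 43.0% with 8 and 39.5% with 9. The SD of each over the 4 libraries was 6.30 to 8.54, and the steps between neighbours were not tested.

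Inside a dense window RAD21 followed the order of CTCF strength. The window's strongest CTCF site by fold had RAD21 in 82.9 ± 6.71% of windows in WT (SD, n = 4), the second in 69.7 ± 9.33%, the third in 53.1 ± 8.17%, the fourth in 38.6 ± 8.42%, the fifth in 27.0 ± 8.18% and the sixth in 18.6 ± 5.79%. The median fold at those ranks was 12.4, 9.78, 8.10, 6.50, 5.24 and 4.08. Single windows ranged from RAD21 at none of their sites to RAD21 at all of them. The median window had RAD21 at 45.8% of its sites over the 4 WT libraries (quartiles 33.3% and 58.3%), and 162 windows were above 50%. In 31 windows none of RAD21's own sites, which needed a peak in all 4 WT lists, was present. Only 1 window had RAD21 at no CTCF site in any WT library. Across the 432 windows Spearman's rho with the RAD21 share was 0.362 for the median CTCF percentile and −0.0403 for the number of genes. These are descriptions across windows that share libraries.

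**Figure D4:**
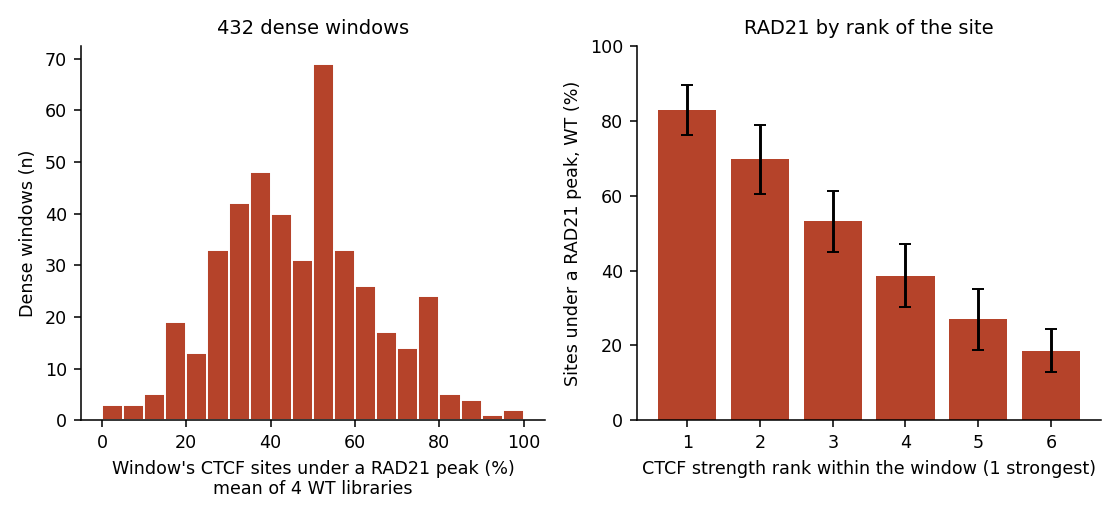
Left, number of dense windows (y axis) by the percent of their CTCF sites under a RAD21 peak, averaged over 4 WT libraries (x axis). Right, percent of sites under a RAD21 peak in WT by the site's rank of CTCF fold within its window (bars are means and whiskers SD over 4 libraries), from 82.9% at the strongest site to 18.6% at the sixth.

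The window with the most sites lay around Ptma, the gene of prothymosin alpha, and Pde6d, which encodes a carrier of lipid-modified proteins (chr1:86500001-86550000). All but 1 of its 12 sites lay outside genes. RAD21 was at 2 to 7 of them in the mutants (median 4.5) and at 2, 5, 5 and 5 in WT. Its strongest CTCF site, at 86509536, had folds of 13.9, 10.1 and 11.9 in WT. RAD21 covered it in 10 of 12 mutant and 3 of 4 WT libraries. The more modest site at 86532544 had CTCF folds of 7.8, 6.2 and 6.8 and carried RAD21 in all 16 libraries, while the site at 86525501, with 9.2, 9.6 and 8.8, had RAD21 in none.

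Windows of 9 sites had quite different RAD21 shares. Around Fam222a and Trpv4, the gene of a calcium-permeable channel (chr5:114600001-114650000), RAD21 was at 1 to 6 sites in the mutants and at 4, 5, 5 and 5 in WT. At Ccnd1, which encodes cyclin D1, and Fgf15 (chr7:144900001-144950000), it was at 2 to 5 sites in the mutants and 3, 4, 3 and 5 in WT, and the 2 sites within Ccnd1 had CTCF folds of 12.8, 8.5 and 8.9, and 14.9, 11.6 and 11.5. In the body of B3glct, a glucosyltransferase gene (chr5:149700001-149750000), it was at 0 to 2 sites in the mutants and at 1, 1, 2 and 1 in WT. Its site at 149713359, the strongest there, was under RAD21 in 11 of 12 mutant and 4 of 4 WT libraries. Beside Fat4, an atypical cadherin gene (chr3:38850001-38900000), RAD21 was at 2 to 5 sites in the mutants and at 2, 4, 3 and 4 in WT. The windows of Sptbn4, a spectrin gene, of the potassium channel genes Kcnj9 and Kcnj10, and of Tpgs1 and Cdc34, a ubiquitin-conjugating enzyme gene, had mean WT shares of 36.1 ± 16.7%, 44.4 ± 9.07% and 33.3 ± 0% (SD, n = 4). The most sites in a window thus came without a fixed RAD21 share.

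High in the RAD21 range were 3 windows at repeats. The window of Rn18s-rs5, an 18S ribosomal RNA related sequence, and AY036118 (chr17:39800001-39850000) had 11 sites within 5155 bp that formed only 3 separate intervals in a WT list. Their mean WT CTCF folds were 1.69 to 3.69, and RAD21 was at 10 or 11 of the 11 sites in the mutants and at 11 in all 4 WT libraries, with WT folds of 1.7 to 3.3. A window without any gene on chromosome 2 (chr2:98650001-98700000) had 6 sites within 4787 bp, all under RAD21 in 12 of 12 mutant and 4 of 4 WT libraries. The window of Mir101c at the sequenced start of chromosome 9 (chr9:3000001-3050000) had RAD21 at 3 to 7 of 7 sites in the mutants and at 5, 7, 7 and 6 in WT. Repeats are known at these 3 places, and their part in the signals was not tested. Without these 3 windows the unmatched difference in RAD21 share was −8.45 points over 16 libraries (exact p = 3.05e-05). The difference matched on fold was not recomputed without them. The 11 sites of the Rn18s-rs5 window were among the weakest by fold, at a median percentile of 0.0972.

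Other windows with named genes ranged from rich to poor in RAD21. The window of Pml, the gene of the nuclear body protein PML, and Islr2 (chr9:58200001-58250000) had RAD21 at 3 to 6 of 6 sites in the mutants and at 6, 6, 4 and 5 in WT. The window of the non-coding gene 2610035D17Rik (chr11:113150001-113200000) had 3 to 6 of 6 in the mutants and 5, 6, 5 and 6 in WT. These 2 windows were named for a high share. Among windows with ribosomal protein genes, that of Rpl38 and Ttyh2 had 28.6% of its sites under RAD21 in WT, that of Rpl11 45.8%, and that of Rpl3 and Syngr1 82.1%. The window of Tbx2, a T-box gene, and Bcas3 had 79.2%, those of Tbx5 25.0% and of Foxp2 45.8%. Around Mapk3, the gene of the kinase ERK1, and Aldoa, with Tbx6 at its side (chr7:126750001-126800000), the share was 29.2 ± 8.33%. Of its 6 sites, the one in Ypel3 at 126780168 had the highest CTCF folds (17.8, 16.2 and 16.6), with RAD21 in 9 of 12 mutant and 3 of 4 WT libraries. The window of Fam222b, Traf4 and Rpl23a, which holds the Tlcd1 promoter site printed above, had RAD21 at 2 to 7 of 7 sites in the mutants and at 3, 5, 4 and 4 in WT. The window of Zfp64, a zinc finger gene (chr2:168900001-168950000), had it at 2 to 4 of 8 sites in the mutants and at 2, 3, 2 and 3 in WT.

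At the bottom of the range, the window of Pole2, a subunit gene of DNA polymerase epsilon, and Klhdc1 (chr12:69200001-69250000) had no RAD21 peak at any of its 6 sites in WT and 0 to 2 in the mutants, where 2 to 6 of the sites had CTCF. Its CTCF folds were 3.3 to 6.9 in WT. The windows of the SNARE genes Vamp5 and Vamp8 (chr6:72350001-72400000) and of Camta1, a calmodulin-binding transcription factor gene (chr4:151200001-151250000), each had RAD21 at 1 site in 1 of 4 WT libraries. In Camta1 that site, at 151232212, had CTCF folds of 13.5, 8.5 and 9.9, and RAD21 covered it in 4 of 12 mutant and 1 of 4 WT libraries. The windows of Brca1, the DNA repair gene, with Nbr1 (chr11:101550001-101600000) and of Galp with Zscan5b (chr7:6200001-6250000) each averaged 8.33 ± 9.62% in WT. These windows were named for being lowest, so their values are descriptions.

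In the 2 protocadherin windows on the gamma side (chr18:37650001-37700000 and chr18:37700001-37750000) the WT share was 71.4%, while the alpha window (chr18:36950001-37000000) had 12.5%. In the second gamma window RAD21 was at 0 to 7 of 7 sites in the mutants and at 3, 6, 6 and 5 in WT. The library at 0 was Del(CBS1-5) replicate 2, which had the shortest RAD21 list (16627 peaks). The imprinted gene Zrsr1 lies inside Commd1 (chr11:22950001-23000000), where RAD21 was at 2 to 5 of 7 sites in the mutants and at 2, 4, 4 and 5 in WT. The window of H2-K1 and H2-K2, class I histocompatibility genes (chr17:33950001-34000000), had 0 to 5 of 7 sites in the mutants and 1, 2, 2 and 3 in WT, and its 7 sites formed only 3 separate intervals. The histone window with H3c13, H2bc18 and H4c14 (chr3:96250001-96300000) had 1 to 4 of 7 in the mutants and 3, 3, 3 and 4 in WT, and 4 intervals.

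The dense window of Hoxd9 to Hoxd13 and Evx2 (chr2:74650001-74700000) holds CTCF sites that were absent from 3 of the alleles. CTCF was found at all 9 of its sites with the alleles Del(CBS1), then Del(CBS2) and also Del(CBS1-2), while the Del(CBS1-3) libraries had 8 and 7. There were 7 and 7 in the Del(CBS1-4) libraries and 6 and 6 in those of Del(CBS1-5), against 9 in each WT library. RAD21 stood at 3 to 6 of the sites in the mutants and at 5, 6, 6 and 5 in WT, with the lowest counts, 4 and 3, in Del(CBS1-5). Both Del(CBS1-5) libraries lay below all WT libraries for RAD21, as did 1 Del(CBS1) library, at 4. Apart from 1 Evx2 site in 1 Del(CBS1-3) library, every absent CTCF site lay in Hoxd10 or where Hoxd10 and Hoxd11 overlap. The site at 74691779 had CTCF folds of 3.4, 5.9 and 5.2 in WT and no peak in Del(CBS1-4) or Del(CBS1-5). RAD21 there was also absent from these alleles and had WT folds of 6.1, 9.7, 7.9 and 12.1. The strongest site, at 74673096 and outside genes, was present in all 30 libraries. With 9 sites and a mean WT RAD21 share of 61.1 ± 6.42%, the window lay among the denser ones and above the upper quartile of dense windows for RAD21. The HoxB window with Hoxb6 to Hoxb9 (chr11:96250001-96300000) had 6 sites and 37.5%.

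**Figure D5:**
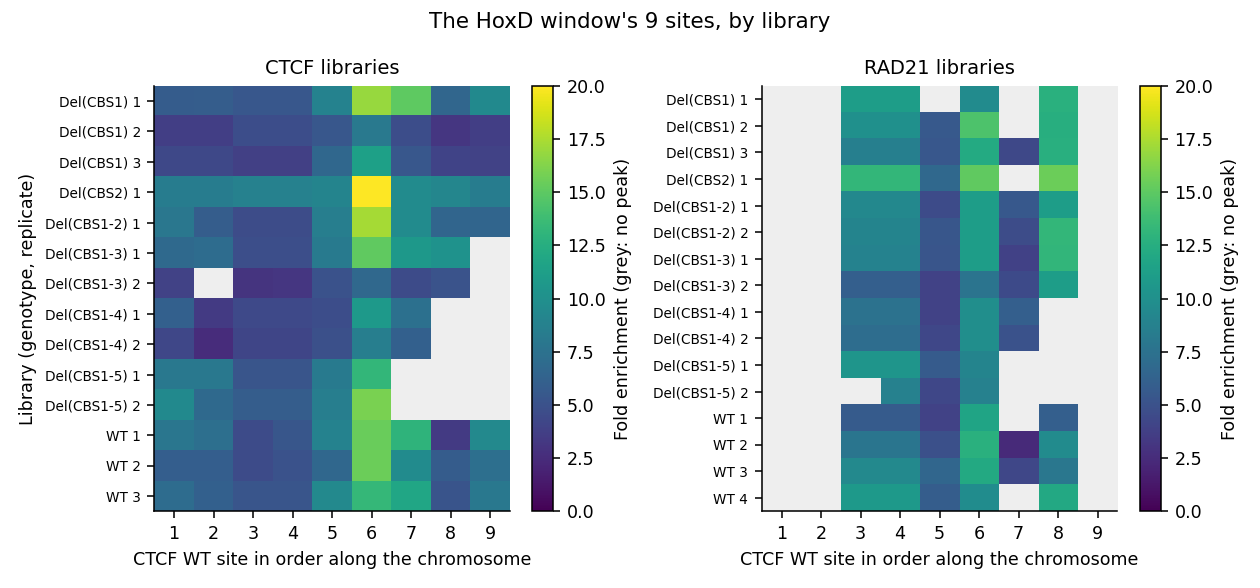
Fold enrichment (colour) of CTCF (left) and RAD21 (right) at the 9 CTCF WT sites of the HoxD window in chromosome order (x axis) in each library (y axis), with grey where no peak covered the site. CTCF site 9 is grey in Del(CBS1-3), Del(CBS1-4) and Del(CBS1-5), site 8 in Del(CBS1-4) and Del(CBS1-5), and site 7 in Del(CBS1-5). Site 6 has the highest CTCF fold in all 14 libraries.

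Across all dense windows the alleles were compared with WT in 3 ways. The first was the difference in RAD21 share between dense windows and other sites. It averaged −7.81 ± 0.808 points in the 12 mutant libraries and −8.62 ± 0.446 in the 4 WT libraries (SD), and the change of +0.804 did not pass (exact permutation of library labels, 2-sided, p = 0.0852, adjusted 0.113). Against the same WT libraries Del(CBS1-5) alone gave +0.350 (exact p = 0.667, with 15 permutations) and Del(CBS1) alone +0.905 (exact p = 0.0857, with 35 permutations). By allele, Del(CBS1) had −7.71 ± 0.598 (SD, n = 3) and the single Del(CBS2) library −6.21. With 2 libraries each, Del(CBS1-2) gave −7.89 ± 0.406, Del(CBS1-3) gave −8.12 ± 0.450, Del(CBS1-4) gave −7.93 ± 0.755 and Del(CBS1-5) gave −8.27 ± 1.51. Without Del(CBS1-5) replicate 1 the change was +0.942, with an exact p of 0.0249. The plain share of sites under RAD21 tracked list length, being lowest at 26.4% in the list of 16627 peaks and highest at 56.8% in the list of 48024.

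The second comparison used limma on normal scores, that is each site's rank by fold within a library mapped to a normal distribution, over sites found in all libraries of the antibody. For RAD21 this kept 12932 sites, 584 of them in dense windows, and 10307 windows by the mean of their sites, 336 of them dense. In Del(CBS1-5) against WT no RAD21 site in a dense window was called at an adjusted p of 0.05, with 0.0464% of all sites called, and no dense window, with 0.0291% of all windows called. At an unadjusted p under 0.05 were 49 of the 584 sites (8.39%, against 9.56% of all sites) and 19 of the 336 windows (5.65%, against 9.36%). The median change was +0.10 in sites of dense windows and +0.01 over all sites. In Del(CBS1) against WT, 0 sites and 0 windows were called, with 0% of all sites and 0% of all windows called, and an unadjusted p under 0.05 was found for 20 sites in dense windows (3.42%, against 5.14% of all sites) and 10 dense windows (2.98%, against 5.26% of all windows). The slope on the number of mutated sites also gave 0 calls in either form, with 0% called overall. Under an unadjusted 0.05 were 25 sites in dense windows (4.28%, against 5.20% of all sites) and 11 dense windows (3.27%, against 5.40% of all windows). Without trend and robust fitting limma likewise called 0 members in each of these contrasts. Without Del(CBS1-5) replicate 1, 7 of the 584 sites in dense windows were called in that allele (1.199%), against 1.21% of all sites.

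The windows nearest to a call show the size of change that did not pass. In Del(CBS1-5) the window of Nanos3, Mir181c and Mir181d had a RAD21 score change of 1.03 ± 0.35 (SE; limma adjusted p = 0.346), and the window of Dmbt1 −0.83 ± 0.30 (0.376). In Del(CBS1) the HoxB window had 0.87 ± 0.26 (limma adjusted p = 0.763). The HoxB window and the Nanos3 window were each represented by 1 common RAD21 site. The sites of the HoxD window that were absent from an allele had no rank there and were not in this test. The mutant libraries share their WT controls, so these contrasts are not independent of each other.

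With limma, CTCF was compared between alleles only, since WT lists chose the windows. Over 18219 windows, 431 of them dense, Del(CBS1-5) against Del(CBS1) gave 0 calls, with 0% of all windows called, and 11 dense windows (2.55%) had an unadjusted p under 0.05, against 8.43% of all windows. Scores were lower in Del(CBS1-5) in 339 of 431 dense windows, with a median change of −0.16, against +0.01 over all windows. This direction went with list length: the Del(CBS1-5) lists held 73839 and 58257 peaks and the Del(CBS1) lists 55068, 40594 and 44479, and its part was not tested. The dense window with the lowest p was that of Pla2g4e and Ehd4, at −1.11 ± 0.25 (SE; limma adjusted p = 0.399). The slope over the mutant libraries gave 0 calls, with 0% of all windows called, and 13 dense windows (3.02%) lay under an unadjusted 0.05, against 4.64% of all windows.

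The third comparison counted WT sites found in no library of an allele. For CTCF, 73 of 2785 sites in dense windows were found in none of the 3 Del(CBS1) libraries (2.62%, against 2.87% of all autosomal sites), and 14 in neither Del(CBS1-5) library (0.503%, against 0.443%). For RAD21, 5 of 934 sites were missing from Del(CBS1) (0.535%, against 0.358%) and 47 from Del(CBS1-5) (5.03%, against 4.22%), spread over 43 windows. The highest CTCF share was in Del(CBS1-4), with 225 sites (8.08%, against 7.88%), and the single Del(CBS2) library lacked 71 (2.55%, against 1.74%). RAD21 sites missing from Del(CBS1-4) numbered 7 (0.749%, against 0.394%), and those missing from Del(CBS1-3) 8 (0.857%, against 0.574%). For RAD21 the share was lower in dense windows in Del(CBS2) (9 sites, 0.964%, against 1.52%) and Del(CBS1-2) (0 sites, 0%, against 0.0973%). For CTCF it was lower there in Del(CBS1-2) (38 sites, 1.36%, against 1.91%) and Del(CBS1-3) (12 sites, 0.431%, against 0.568%). These shares have no test. They also depend on how many libraries of an allele had to lack a site, so they do not rank the alleles. The 47 became 251 without Del(CBS1-5) replicate 1, and 136 and 71 without WT replicates 1 and 4, where fewer lists had to meet the condition. In the other direction, sites present in every list of the allele and in no WT list numbered 1 of 2127 CTCF sites in dense windows in Del(CBS1) (0.0470%, against 0.0397% of all autosomal sites of the allele) and 20 of 2802 in Del(CBS1-5) (0.714%, against 1.42%). For RAD21 they numbered 0 of 776 in Del(CBS1) (0%, against 0.0242%) and 1 of 727 in Del(CBS1-5) (0.138%, against 0.0784%). The rule chose dense windows for CTCF sites found in every WT list. By itself this tends to lower the share of CTCF sites there that are absent from WT.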

How the data were processed

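Each library's peaks were deposited as a list of their own, with positions on mm10. Peak calling was with MACS2 2.1.1.20160309, per the submitters' processing notes. These also name Bowtie2 2.3.5 and cutadapt 1.16, besides bedtools 2.27.1, Picard 2.19.0 and SAMtools 1.9, and options are not given in the sources used here. In the deposited lists the score is a display value, the signal is a ratio (the fold enrichment over local background), the caller's −log10 p is given beside its −log10 q, and the summit is an offset from the peak start. Values of single lists were compared as ranks or detection only.

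A site was detected where a peak covered its median summit, and its fold was that of the covering record with the nearest summit. Peaks on chromosomes 1 to 19, X and Y were used. Genes came from RefSeq spans (GRCm38.p6). Differences within libraries were tested by exact sign permutation and alleles by exact permutation of labels, adjusted by Benjamini-Hochberg over 25 tests. Changes in rank came from limma 3.58.1 (R 4.3.3) with robust and trend options, adjusted over all sites or windows, and the script was tested on simulated data. A lone library of a genotype was assumed to vary like the others. Other steps ran in Python 3.11.15 (scipy 1.17.1, pandas 2.3.3, numpy 2.4.6), with matplotlib 3.10.9 for plots.

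Windows named were the 10 with the most sites, the Hoxd10 window, the richest window of each gene list, the 5 with the highest and lowest RAD21 share, and up to 10 called per contrast. Ties went to the window with more sites and then the higher summed fold, which left out Piwil1 (9 sites), Asb2 and Elmo1 (87.5% RAD21) and Glt1d1 (8.33%). The other windows of the gene lists and those nearest to a call were named after their values were seen. Members and lists were chosen with earlier results of these data known. Replicate numbers were not used as pairs.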

Additional observations from a re-analysis of the deposited data

Results flagged for a closer look

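In 7 named windows 1 of the 4 WT RAD21 libraries stood far from the other 3 in the number of CTCF sites under a RAD21 peak. Chance puts about 1 in 20 groups past this limit, and 34 groups were looked at; counts this small also tie often, which leaves a lone value standing apart by a single site. The window of Pde6d and Ptma had 2 sites in WT replicate 1 and 5 in each of the other 3. The window of Fam222a and Trpv4 had 4 in replicate 1 and 5 in the others, and that of Gdpd3 and Mapk3 had 1 in replicate 1 and 2 in the others. Replicate 1 had the shortest WT RAD21 list, 22406 peaks against 32433 to 39746. The B3glct window had 2 in replicate 3 and 1 in the others, and the histone window of Fcgr1 and H3c13 had 4 in replicate 4 and 3 in the others. The window of Vamp5 and Vamp8 had 1 in replicate 2, and that of Camta1 had 1 in replicate 1, with 0 in the others.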

How the results depend on the processing

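Of 229 recomputed values 208 kept their direction and their side of the threshold or stayed close to the reported value. Many of the 208 were limma counts of called members that stayed at 0, which have no direction. The RAD21 difference of −8.01 points became −8.62 in the 4 WT libraries alone (exact p = 0.125, the smallest possible), 2.26 when matched on quartile groups of fold, and ran from −8.13 to −7.93 without single libraries. The CTCF percentile difference became 2.55 by rank of −log10 p and −5.37 with −log10 q of at least 10, and ran from −13.5 to −12.3 without single libraries. The difference in CTCF detection became −1.28 with a summit within 100 bp, 4.28 when matched on quartile groups of fold, 2.55 with −log10 q of at least 10, 2.295 with the same number of top peaks and 0.725 with no other site within 1 kb and each of these 5 values passed the threshold. It ran from 0.217 to 0.513 without single libraries. The cause of these shifts was not tested. The change of the RAD21 difference with the alleles ran from 0.615 to 0.974 without single libraries, and among these passed (exact p = 0.0249) only without Del(CBS1-5) replicate 1. Leaving out the only library of a genotype, and the matching of detection on fold, were chosen after seeing the data.

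The 432 windows became 909 with sites in at least 2 of 3 WT lists, 134 with 7 or more sites, 112 with −log10 q of at least 10, 259 with 6 or more separate intervals and 472 to 691 without single WT libraries. The median WT percentile of 36.1 became 40.7 with at least 2 lists and 21.6 with −log10 q of at least 10, where fewer or other sites were ranked, and ran from 35.8 to 39.3 without single libraries. Members called by limma in Del(CBS1-5) numbered 0 to 7 without single libraries, and the 47 lost RAD21 sites became 49 to 251.

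Same-numbered libraries of different groups had deviations that correlated at −0.188 to 0.275 for RAD21 (1 of 31 pairs over 0.1) and −0.251 to 0.266 for CTCF (6 of 21). On these values the numbers were not taken to pair the samples. CTCF and RAD21 libraries with the same number were not compared with each other. With a replicate block the RAD21 difference between alleles and WT was 0.804 (exact p = 0.131), and limma with the block called 0 members in every contrast. Unknown depth limits every count of detected sites.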
